A study of Mus musculus with 17 samples.

Results

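The 10 genes described here encode secreted or surface proteins of the intestinal epithelium that act against microbes at the mucosa: the Reg lectins Reg1, Reg3a, Reg3b, Reg3g and Reg4, and Retnlb, Lypd8, Pigr, Lyz1 and Ang4. They were chosen as a list of non-defensin antimicrobial and barrier products and were found by symbol among the 33840 genes of the intestinal files, and by gene identifier among the 24594 identifiers of the files labelled liver. All 10 passed the filter on low counts in both sets of files. RNA was sequenced in bulk from 17 mouse libraries in 7 groups, in a study whose title concerns a signal from liver to intestinal stem cells through PEDF. The 8 intestinal libraries came from small intestine of mice labelled WT, as IEC (intestinal epithelial cells) or as crypts, after a sham operation or after hepatectomy (removal of liver tissue), with 2 libraries in each of the 4 groups. The other 9 libraries, also labelled WT, are described as liver of mice given DSS (dextran sulfate sodium, which injures the gut lining), at day 0, 10 or 20, with 3 libraries a day. Ages, the extent of liver removal, the time after surgery and the DSS schedule are not given in the sources used here, and nothing states that the libraries of a group came from separate animals, so the tests below measure the spread between these libraries.

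Total counts ran from 26609686 to 43580020 per intestinal library and from 12742629 to 42669857 per library labelled liver. The headers of the intestinal files number the sham and the hepatectomy libraries in separate series, so hepatectomy and any difference between those series cannot be told apart. Of the 12 mitosis genes used as a check, 12 were higher in sham crypts than in sham IEC and 12 of 12 enterocyte genes were lower, yet 12 of 14 Paneth cell genes were also lower in the crypts. Against their label, the 6 libraries of day 0 and day 10 hold the crypt stem cell gene Olfm4 at 6760 ± 370 and 3920 ± 1100 CPM (reads per 1e+06 counted, after TMM scaling; SD, n = 3) against 48.7 ± 12 CPM at day 20. The liver gene Alb stood at 341 ± 56, 697 ± 410 and 56100 ± 2300 CPM on those days. They are called libraries labelled day 0, 10 and 20 below, and a difference between days is also one between gut-rich and liver-rich RNA wherever day 20 is involved. The days further differ in Xist (23.7 ± 2.3, 432 ± 170 and 1.74 ± 0.29 CPM) and the Y-linked gene Ddx3y (19.2 ± 4.9, 0.927 ± 0.45 and 69.4 ± 3.1 CPM), so they differ in sex-linked transcripts as well.

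Reg3 proteins are small C-type lectins that enterocytes and Paneth cells release into the mucus, where they bind bacterial cell wall sugars and can kill Gram-positive bacteria. Their transcription in the gut is known to depend on microbial signals and on interleukin 22, which acts through the factor STAT3. Lysozyme (Lyz1) and the ribonuclease Ang4 are granule products of Paneth cells, Retnlb is a goblet cell product, Lypd8 is an enterocyte surface protein that binds flagella, and Pigr carries IgA from the tissue to the lumen.

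In the mouse genome (GENCODE annotation, mm10) 4 of the 5 Reg genes form a cluster on chromosome 6: Reg3b at chr6:78370657-78373466, Reg3a at chr6:78380709-78383827 and Reg1 at chr6:78422711-78428667 on the plus strand, and Reg3g at chr6:78466269-78468872 on the minus strand. Reg4 lies apart at chr3:98222156-98236748. The other members are Retnlb at chr16:48816856-48818892, Lypd8 at chr11:58379043-58390728, Pigr at chr1:130826684-130852249, Lyz1 at chr10:117287797-117292868 and Ang4 at chr14:51763878-51773590. No annotated gene overlaps any of the 10. The promoters of Reg3b and Reg3g are shown because both genes rose after hepatectomy and fell between day 0 and day 10, and those of Reg4 and Ang4 because both rose together in libraries of day 10. Each is the 120 bases before the gene's start in RefSeq (GRCm38.p6), 5′ to 3′ on the gene's strand, with a TATA box (TATAAA) in capitals where there is one. Of the Reg3b bases, 24 lie in an exon that GENCODE annotates. They lie at chr6:78370765-78370884 (plus strand), chr6:78468875-78468994 (minus strand), chr3:98222036-98222155 (plus strand) and chr14:51773591-51773710 (minus strand).
Reg3b: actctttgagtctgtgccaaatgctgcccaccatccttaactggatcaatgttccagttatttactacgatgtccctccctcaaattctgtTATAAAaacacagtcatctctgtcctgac
Reg3g: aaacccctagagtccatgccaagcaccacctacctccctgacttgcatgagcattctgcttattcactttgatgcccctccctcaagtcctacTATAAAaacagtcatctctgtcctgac
Reg4: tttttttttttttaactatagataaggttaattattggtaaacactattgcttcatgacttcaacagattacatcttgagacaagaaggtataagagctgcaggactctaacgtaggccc
Ang4: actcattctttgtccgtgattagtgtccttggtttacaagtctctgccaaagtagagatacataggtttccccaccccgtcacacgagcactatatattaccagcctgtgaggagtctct

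The Reg3b and Reg3g stretches were identical at 88 of 123 aligned columns (71.5%), the highest of the member pairs compared, where Reg1 and Reg3g reached 54.3% and Reg3a and Reg3g 51.8%. Promoter windows for 9 of the 10 genes were matched by symbol, each running from 250 bases before to 50 after the start. The letters TATAAA, searched on both strands, occurred in Reg3b at -29 to -24, in Reg3g at -27 to -22 and in Reg1 at -30 to -25 from the start, on the opposite strand also in Reg3g at -161 to -156 and in Reg1 at 35 to 40, and in 13.6% of all 32851 windows. The general STAT letters TTCNNNGAA occurred in the windows of Reg3b (-129 to -121), Ang4 (-192 to -184) and Pigr (39 to 47), and in 8.3% of all windows. The form TTCCNGGAA, which is contained in the general one, was found in the Pigr window at the same place and in 1.15% of all windows. These matches describe letters in the reference, and no binding was measured.

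Hepatectomy was compared with sham first in crypts and then in IEC, which asks how the loss of liver tissue relates to the epithelium's transcripts. In crypts 6 of the 10 genes rose and 4 fell, with 37.5% of all 18207 tested genes called. In IEC 7 rose, 2 fell and 1 did not pass, with 37.8% of all genes called. The median log2 fold change of the 10 was 0.37 in crypts and 0.23 in IEC, beside 0.01 and 0.02 over all tested genes. The 10 genes together took 1.62 ± 0.025% of all counts in sham IEC and 3.24 ± 0.017% in hepatectomy IEC (SD, n = 2), against 1.53 ± 0.088% and 1.69 ± 0.016% in crypts. All values for single libraries appear in the plot of the 10 genes by intestinal library.

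**Figure D1:**
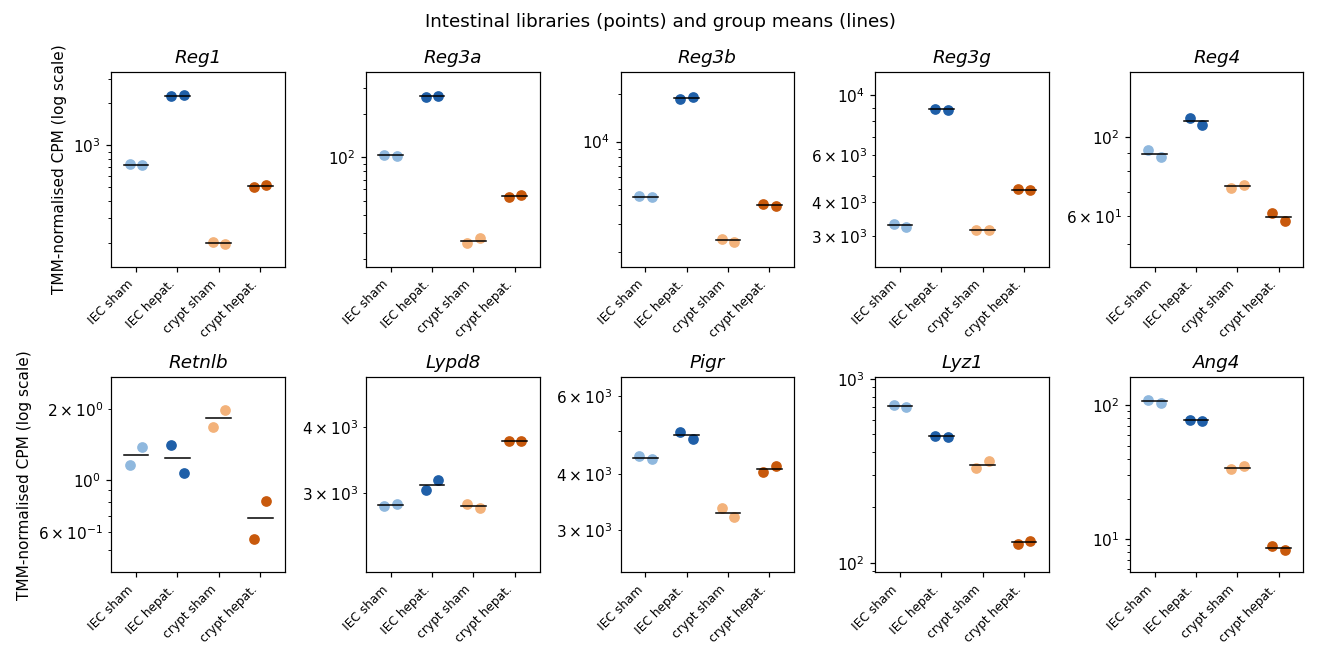
Level of each of the 10 genes in the 8 intestinal libraries, as TMM-normalised CPM on a log axis with its own range in each panel (points, libraries; lines, means of 2). Reg1, Reg3a, Reg3b and Reg3g stand higher after hepatectomy in both IEC and crypts, while Lyz1 and Ang4 stand lower, most of all in crypts.

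Reg3b, a lectin of enterocytes and Paneth cells, measured 4530 and 4440 CPM in the sham IEC libraries and 18500 and 19100 CPM after hepatectomy. In crypts it measured 2430 and 2330 CPM in sham and 4030 and 3930 CPM after hepatectomy. In both preparations the hepatectomy libraries lay above the sham libraries with no overlap. The rise was 4.19-fold in IEC (log2 2.07 ± 0.037, SE; edgeR adjusted p = 2.1e-11) and 1.67-fold in crypts (log2 0.74 ± 0.036; adjusted p = 2e-08). The rise in crypts was smaller than in IEC by -1.32 ± 0.051 on the log2 scale (adjusted p = 3e-08 for the difference of effects), a comparison in which 19.2% of all genes were called and 9 of the 10 members were.

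Reg3g, the close relative that kills Gram-positive bacteria, measured 3330 and 3240 CPM in sham IEC and 8930 and 8810 CPM in hepatectomy IEC. In crypts the libraries stood at 3150 and 3150 CPM in sham and at 4480 and 4450 CPM after hepatectomy. It thus rose without overlap in both preparations, 2.70-fold in IEC (log2 1.43 ± 0.034; adjusted p = 5.6e-11) and 1.42-fold in crypts (log2 0.50 ± 0.033; adjusted p = 3e-07), and the effects differed by -0.93 ± 0.047 (adjusted p = 1.7e-07). The ratio of Reg3b to Reg3g counts was 1.36 and 1.37 in sham IEC and 2.07 and 2.17 in hepatectomy IEC. In crypts that ratio was 0.771 and 0.738 in sham and 0.899 and 0.884 after hepatectomy. Reg3g therefore held more counts than Reg3b in the 4 crypt libraries and fewer in the 4 IEC libraries.

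Reg1, a lectin best known from the pancreas and regenerating tissue, measured 730 and 718 CPM in sham IEC against 2250 and 2290 CPM after hepatectomy. Its crypt libraries read 203 and 197 CPM in sham and 504 and 516 CPM after hepatectomy. The fold changes were 3.13 in IEC (log2 1.65 ± 0.039; adjusted p = 5.6e-11) and 2.55 in crypts (log2 1.35 ± 0.039; adjusted p = 3e-10), both without overlap of libraries. Reg3a, another lectin of the Reg3 group, followed at lower levels: 104 and 102 CPM in sham IEC, 259 and 265 CPM in hepatectomy IEC. In crypts Reg3a measured 25.6 and 27.6 CPM in sham and 53.5 and 54.5 CPM after hepatectomy. It rose 2.54-fold in IEC (log2 1.35 ± 0.052; adjusted p = 1.5e-09) and 2.03-fold in crypts (log2 1.02 ± 0.055; adjusted p = 5.2e-08). The effect in crypts was smaller by -0.30 ± 0.054 for Reg1 (adjusted p = 0.0024) and by -0.33 ± 0.075 for Reg3a (adjusted p = 0.0097). Without the second sham crypt library the Reg3a difference was -0.25 with adjusted p = 0.078. Because Reg genes are also made by the exocrine pancreas, pancreatic genes were read as well. The acinar list, most of it Cela1, summed to 8.13 to 8.84 CPM in sham IEC and 12.7 to 14.7 CPM in hepatectomy IEC. In crypts it summed to 6.03 to 6.22 CPM in sham and 7.93 to 9.13 CPM after hepatectomy. Reg2, a pancreatic family member, went from a mean of 0.057 to 0.155 CPM in IEC and from 0.0147 to 0.0582 CPM in crypts. The part of pancreatic RNA in the Reg values was not tested.

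Reg4, a lectin of secretory and enteroendocrine cells, went opposite ways in the preparations. It measured 92 and 87.5 CPM in sham IEC and 113 and 108 CPM after hepatectomy, but 72.1 and 73.4 CPM in sham crypts and 61.3 and 58.1 CPM after hepatectomy. The libraries did not overlap in either case. It rose 1.23-fold in IEC (log2 0.30 ± 0.054; adjusted p = 0.00092) and fell 1.22-fold in crypts (log2 -0.29 ± 0.054; adjusted p = 0.0014), a difference of -0.58 ± 0.077 (adjusted p = 0.00029).

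Lyz1, the Paneth cell lysozyme that cleaves bacterial peptidoglycan, measured 720 and 706 CPM in sham IEC and 490 and 485 CPM after hepatectomy. In crypts it measured 327 and 356 CPM in sham and 126 and 132 CPM after hepatectomy. It fell 1.46-fold in IEC (log2 -0.55 ± 0.048; adjusted p = 2.3e-06) and 2.65-fold in crypts (log2 -1.41 ± 0.05; adjusted p = 1.4e-09). Ang4, the Paneth cell ribonuclease, measured 110 and 104 CPM in sham IEC and 77.6 and 76.6 CPM after hepatectomy. Its crypt libraries read 33.4 and 35.1 CPM in sham and 8.84 and 8.34 CPM after hepatectomy. Ang4 fell 1.39-fold in IEC (log2 -0.48 ± 0.056; adjusted p = 2.9e-05) and 4-fold in crypts (log2 -2.00 ± 0.068; adjusted p = 9.6e-10), the largest change among the 10 genes in crypts. Both falls were larger in crypts, by -0.86 ± 0.069 for Lyz1 (adjusted p = 6.3e-06) and by -1.52 ± 0.088 for Ang4 (adjusted p = 4.4e-07). In bulk RNA, fewer Paneth cells and less of these transcripts per cell cannot be told apart. The Paneth list moved with them: 13 of 14 tested genes fell and 1 rose in crypts, where its summed level went from 1380 to 1530 CPM in sham to 695 to 704 CPM, and 10 fell and 2 rose in IEC, from 4550 to 4870 CPM to 2860 to 3000 CPM. Its part in the falls of Lyz1 and Ang4, which are Paneth genes themselves, was not tested. The ratio of Lyz1 to Ang4 counts was 6.54 and 6.78 in sham IEC, 6.31 and 6.34 in hepatectomy IEC, 9.79 and 10.1 in sham crypts and 14.2 and 15.8 in hepatectomy crypts.

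Retnlb, a goblet cell protein of the resistin family, was rare in the intestinal files. It was counted 31 and 36 times in sham IEC, 43 and 30 times in hepatectomy IEC, 57 and 90 times in sham crypts and 19 and 35 times in hepatectomy crypts. In crypts this was a fall of 2.63-fold (log2 -1.39 ± 0.28; adjusted p = 0.0022) with no overlap of libraries. In IEC the libraries overlapped at 1.16 and 1.38 CPM against 1.41 and 1.07 CPM, and no difference was detectable at this depth (log2 -0.03 ± 0.30; adjusted p = 0.96). The difference of the effects, -1.37 ± 0.41 with adjusted p = 0.037, missed the threshold in 7 of 12 alternative analyses. Of 12 goblet cell genes, 12 fell in crypts, from a sum of 6430 to 6460 CPM to 2790 to 2860 CPM, while in IEC 3 rose and 4 fell. Their part in the fall of Retnlb was not tested.

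Lypd8, the flagella-binding surface protein, measured 2860 and 2810 CPM in sham crypts and 3760 and 3760 CPM after hepatectomy, a rise of 1.33-fold (log2 0.41 ± 0.036; adjusted p = 3.6e-06). In IEC it measured 2840 and 2860 CPM in sham and 3040 and 3180 CPM after hepatectomy (log2 0.13 ± 0.036; adjusted p = 0.015), which missed the threshold in 6 of 13 alternative analyses. Lypd8 was the member whose rise was larger in crypts than in IEC, by 0.28 ± 0.05 (adjusted p = 0.0022). Pigr, the IgA carrier, measured 3360 and 3210 CPM in sham crypts and 4060 and 4170 CPM after hepatectomy. In IEC it measured 4390 and 4330 CPM in sham and 4970 and 4810 CPM after hepatectomy. Pigr rose 1.25-fold in crypts (log2 0.33 ± 0.037; adjusted p = 3.4e-05) and 1.12-fold in IEC (log2 0.17 ± 0.037; adjusted p = 0.0038), and the IEC call was lost without the second sham IEC library. The 2 effects differed by 0.16 ± 0.053 (adjusted p = 0.052), which did not pass but was called in 4 of 12 alternative analyses, with no filter and without the first sham crypt, hepatectomy IEC or hepatectomy crypt library (lowest adjusted p = 0.0058). Enterocyte genes rose in 12 of 12 cases in both preparations, from a sum of 31100 to 31500 CPM to 77700 to 81100 CPM in IEC and from 5520 to 5590 CPM to 13200 to 13300 CPM in crypts, and mitosis genes fell in 12 of 12 cases in IEC and 11 of 12 in crypts. Markers of the duodenum and jejunum rose too, 6 of 6 in IEC, from a sum of 698 to 713 CPM to 1420 to 1470 CPM, and 5 of 6 in crypts, from 238 to 247 CPM to 352 to 353 CPM. Of 5 ileal markers, 1 rose and 2 fell in IEC and 2 rose and 2 fell in crypts, with Fabp6 going from 273 ± 7.6 to 104 ± 11 CPM in IEC and from 221 ± 21 to 122 ± 3.4 CPM in crypts. The part of these shifts in the rises of the Reg lectins, Lypd8 and Pigr was not tested.

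**Figure D2:**
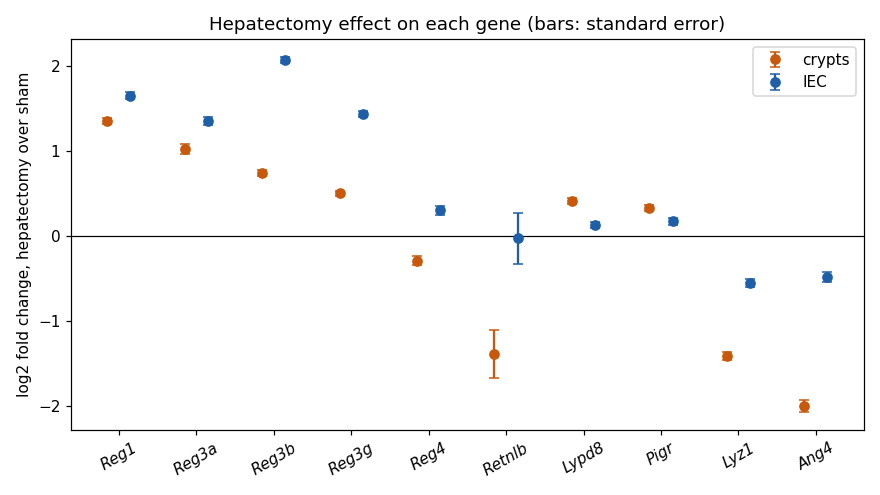
Log2 fold change of each gene from sham to hepatectomy, for crypts and for IEC (points, edgeR estimates; bars, standard errors; y axis log2). Reg3b and Reg3g rose more in IEC than in crypts, Lyz1 and Ang4 fell more in crypts, Retnlb has the widest bars, and Reg4 lies on opposite sides of zero.

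Crypts were also compared with IEC directly, which shows where each gene's transcripts were richer. In sham mice 7 of the 10 genes were lower in crypts and none higher, with 38.6% of all genes called. After hepatectomy 9 were lower and 1 higher, with 51.9% of all genes called. The median log2 difference of the 10 was -0.66 in sham and -1.46 after hepatectomy, beside 0.02 and 0.01 over all genes. In sham the largest were Reg3a (log2 -1.95 ± 0.055; adjusted p = 5.5e-11), Reg1 (-1.85 ± 0.039; adjusted p = 5e-12) and Ang4 (-1.64 ± 0.058; adjusted p = 3.5e-10), followed by Lyz1 at -1.06 ± 0.049 and Reg3b at -0.92 ± 0.036. Reg3g was -0.06 ± 0.033 (adjusted p = 0.17), Lypd8 -0.01 ± 0.036 (adjusted p = 0.88) and Retnlb 0.53 ± 0.28 (adjusted p = 0.15) in the sham comparison, none of which passed. Reg3g was called lower in crypts in 1 of 13 alternative analyses, the edgeR fit of only the groups compared (adjusted p = 0.035). After hepatectomy Ang4 was 8.99-fold lower in crypts (log2 -3.17 ± 0.067; adjusted p = 2.3e-12) and Reg3b 4.72-fold lower (log2 -2.24 ± 0.037; adjusted p = 5.7e-13), while Lypd8 was 1.21-fold higher (log2 0.27 ± 0.036; adjusted p = 3.5e-05). Retnlb was lower after hepatectomy (log2 -0.84 ± 0.31; adjusted p = 0.037), which missed the threshold in 7 of 13 alternatives.

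Levels of different genes were ordered per kilobase of exon. The length counts all annotated exon bases of a gene: 2114 for Reg3g, 1142 for Reg3b and 1284 for Lypd8. The order depends on that choice. By CPM without it Reg3g (3290 ± 64) stood above Lypd8 (2850 ± 9.7) in sham IEC. In sham IEC the order was Reg3b (3930 ± 56 CPM per kb, SD, n = 2), Lypd8 (2220 ± 7.5), Reg3g (1550 ± 30), Pigr (1080 ± 11), Reg1 (801 ± 8.6), Lyz1 (564 ± 8.1), Ang4 (151 ± 6), Reg3a (125 ± 2.3), Reg4 (87.9 ± 3.1) and Retnlb (1.82 ± 0.23), with each gap between neighbours larger than their spread. In hepatectomy IEC Reg3b reached 16500 ± 360 CPM per kb and Reg3g 4200 ± 39. There Reg1 (2510 ± 29) and Lypd8 (2420 ± 77) were not separated beyond their spread, nor were Ang4 (109 ± 1) and Reg4 (108 ± 3.5). In sham crypts Lypd8 (2210 ± 26) stood above Reg3b (2080 ± 64), and in hepatectomy crypts Reg3b (3480 ± 58) stood above Lypd8 (2930 ± 2.8). Lyz1 led in the libraries labelled day 0 with 6130 ± 1200 CPM per kb (SD, n = 3), where Reg3g (1310 ± 260), Ang4 (1230 ± 240) and Lypd8 (1110 ± 190) overlapped.

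Transcript sequence bears on how far related genes can be separated by counting. Of the 50-base words in its transcripts, Lyz1 shares 16.1% with other genes, 195 of 1214, all of them with Lyz2, the lysozyme of macrophages. Ang4 shares 4.7% with Ang5 and Ang2, Reg1 3.65% and Pigr 0.458% with unrelated genes, and the other 6 members share none. Lyz2 measured 3.86 ± 0.022 CPM in sham IEC and 1.42 ± 0.076 CPM in sham crypts, far below Lyz1. In the libraries labelled day 0 it measured 338 ± 68 CPM, beside 7740 ± 1500 CPM for Lyz1. The ratio of Lyz1 to Lyz2 counts was 22.9, 22.5 and 23.4 at day 0 and 20.8, 22.8 and 21 at day 10. The part of the shared sequence in the counts of either gene was not tested. In the libraries labelled day 20 Lyz2 stood at 65.2 ± 1.9 CPM beside 59.7 ± 9.9 CPM for Lyz1. The Lyz1 values are uncertain to that degree, most of all at day 20.

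By pattern over the 8 intestinal libraries (Pearson r of log2 CPM, 4 groups of 2, description only), the gene most like Reg1 was Smim24 (r = 0.9996), most like Reg3a Sec22c (0.9993) and most like Reg3b Retsat (0.9994). For Reg3g it was Abhd16a (0.9975), for Reg4 Impa1 (0.9924), for Lypd8 Efnb2 (0.992) and for Pigr Xpr1 (0.9974). Close behind for Pigr were the enterocyte fatty acid carrier Fabp1 (0.9952) and Trak1 (0.9952). Lyz1 was most like Defa17 (0.9967) and Ang4 most like Defa3 (0.9976), both defensins of Paneth cells, with Defa5 next for both. Retnlb was most like Ddx5 (0.9931), with few counts behind it. These correlations ran over about 9572 candidate genes, and libraries of a group share their preparation.

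Other genes of the same defence programme were read from lists, beside 37.5% of all tested genes called in crypts and 37.8% in IEC. Of 24 other antimicrobial genes tested, 4 rose and 9 fell in crypts (median log2 -0.09) and 13 rose and 5 fell in IEC (median 0.26). Zg16, a goblet cell lectin-like protein that binds Gram-positive bacteria, fell in crypts (log2 -1.28 ± 0.048; adjusted p = 2.1e-09) and rose in IEC (0.73 ± 0.047; adjusted p = 1.4e-07). Itln1, the intelectin of goblet and Paneth cells, fell in both (-1.20 ± 0.049, adjusted p = 4.4e-09 in crypts; -0.87 ± 0.048, adjusted p = 3.5e-08 in IEC). Mptx2, a Paneth cell pentraxin, fell in crypts by -1.07 ± 0.085 (adjusted p = 1.5e-06), and Nos2, the inducible nitric oxide synthase, fell in IEC by -1.08 ± 0.072 (adjusted p = 2e-07).

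Of 15 genes of the interleukin 22 and STAT3 list, 6 rose and 1 fell in crypts (median 0.14) and likewise 6 rose and 1 fell in IEC (median 0.31). Over all tested genes 37.5% were called in crypts and 37.8% in IEC. Socs3, the feedback inhibitor induced by STAT3, rose in both (0.61 ± 0.087, adjusted p = 0.00019; 0.88 ± 0.098, adjusted p = 1.8e-05). Bcl3, a nuclear IkB protein, rose in crypts (1.09 ± 0.11; adjusted p = 1.5e-05), as did the kinase Jak2 (0.74 ± 0.11; adjusted p = 0.00018), and in IEC the receptor chain Il10rb (0.88 ± 0.051; adjusted p = 6e-08) and Stat3 itself (0.31 ± 0.055; adjusted p = 0.00069) rose. The receptor gene Il22ra1 went from 11.1 ± 2 to 6.5 ± 0.55 CPM in crypts and from 7.32 ± 0.2 to 10 ± 1.1 CPM in IEC. Il22 was at 0 counts in the sham IEC, sham crypt and hepatectomy IEC libraries. In the 2 hepatectomy crypt libraries it stood at 0 and 0.0233 CPM. Of 23 genes of microbial sensing, 5 rose and 3 fell in crypts (median -0.04) and 3 rose and 8 fell in IEC (median -0.09). Among them Il18, an epithelial cytokine, rose in crypts (1.89 ± 0.075; adjusted p = 3.9e-09) and IEC (1.14 ± 0.065; adjusted p = 5.5e-08). Cd14, the lipopolysaccharide co-receptor, fell in both (-0.51 ± 0.071, adjusted p = 0.00015; -1.26 ± 0.094, adjusted p = 5.1e-07). Nfkbia, the NF-kB inhibitor, rose in crypts (0.25 ± 0.044; adjusted p = 0.00093) and Tlr1 fell in IEC (-1.29 ± 0.14; adjusted p = 1.3e-05).

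Transcription factors of secretory cells split: of 11, 2 rose and 4 fell in crypts (median -0.18), and 2 rose and 2 fell in IEC (median 0.00). The shares called over all genes were again 37.5% in crypts and 37.8% in IEC. Atoh1, which directs cells to the secretory fate, fell in crypts (-1.26 ± 0.095; adjusted p = 9.7e-07), as did the goblet and Paneth cell factor Spdef (-1.19 ± 0.09; adjusted p = 1e-06). Klf4 rose in crypts (0.28 ± 0.075; adjusted p = 0.011) and in IEC (0.56 ± 0.07; adjusted p = 4.2e-05). In IEC Sox9 fell (-0.30 ± 0.063; adjusted p = 0.0021) and Xbp1 rose (0.21 ± 0.049; adjusted p = 0.0046). Of 9 genes of IgA production and transport, 1 rose and 5 fell in crypts (median -0.96) and 3 rose and 5 fell in IEC (median -0.74). The IgA chain Igha, the cargo of Pigr, went from 284 ± 4.6 to 75.6 ± 2.1 CPM in IEC (log2 -1.91 ± 0.061; adjusted p = 3.1e-10) and from 50.4 ± 1.7 to 11.2 ± 1.1 CPM in crypts (-2.16 ± 0.07; adjusted p = 7.2e-10), while Pigr rose. The light chain Igkc (-1.67 ± 0.059 in IEC, -2.25 ± 0.071 in crypts) and Jchain, which joins IgA units (-2.01 ± 0.098 and -1.91 ± 0.13), fell with it. Of the 6 other B and plasma cell markers tested, 5 fell in IEC and 4 in crypts, and their part was not tested.

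In the libraries labelled day 10 against those labelled day 0, 3 members rose and 2 fell, while 5 missed the threshold, and 43.6% of all 16694 tested genes were called. The median of the 10 was 0.24, beside 0.10 over all genes. The third library of day 10 stood apart from the first and second for the members other than Lypd8 and Pigr, as the plot of the day 10 libraries shows, and values without it are given for the members and, where they differ, for the lists. It is also the library with the fewest counts, 12742629. Without it, 40.7% of all genes were called.

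Reg3b fell from 3040, 2230 and 2240 CPM at day 0 to 68.7, 73.2 and 878 CPM at day 10, with no overlap (log2 -2.88 ± 0.78; adjusted p = 0.013). Reg3g fell from 3410, 2470 and 2430 CPM to 146, 150 and 726 CPM (log2 -3.02 ± 0.55; adjusted p = 0.0027). Without the third library the changes were -5.18 ± 0.26 for Reg3b, 36.2-fold lower (adjusted p = 8.6e-11), and -4.27 ± 0.26 for Reg3g, 19.3-fold lower (adjusted p = 1e-09). In the same fit 4 of 5 ileal marker genes fell and 1 rose, against 0 and 1 with all libraries, and Fabp6, the ileal bile acid carrier, changed by -3.61 ± 0.21 (adjusted p = 5.8e-10). The summed ileal level was 184 to 243 CPM at day 0 and 35.1 to 370 CPM at day 10, and its part in the falls of Reg3b and Reg3g was not tested. The directions of Reg3b and Reg3g were opposite to those after hepatectomy. The Reg3b to Reg3g ratio was 0.89, 0.904 and 0.921 at day 0 and 0.471, 0.489 and 1.21 at day 10. Reg1 rose from 27.2, 19.5 and 20.4 CPM to 63.5, 61.6 and 151 CPM (log2 2.04 ± 0.3; adjusted p = 0.001), and by 1.44 ± 0.18 without the third library. For Reg3a the levels were 4.99, 3.55 and 3.62 CPM at day 0 and 3.42, 3.14 and 20 CPM at day 10, where the third library alone set the positive estimate of 1.11 ± 0.56 (adjusted p = 0.12), since without it the estimate was -0.34 ± 0.27 (adjusted p = 0.31). Reg3a was called in 2 of 14 alternative analyses, the edgeR fits without the first or the second day 10 library (lowest adjusted p = 0.04).

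Reg4 and Ang4 shared a pattern. Reg4 measured 123, 93.3 and 87.9 CPM at day 0 and 788, 747 and 52.9 CPM at day 10 (log2 2.39 ± 0.64; adjusted p = 0.013). Ang4 measured 1070, 780 and 768 CPM at day 0 and 6610, 6550 and 427 CPM at day 10 (log2 2.37 ± 0.67; adjusted p = 0.016). Both passed the test although the day 10 libraries overlapped those of day 0, with the third one below and the others above. Without the third library the rises were 7.37-fold for Reg4 (log2 2.88 ± 0.18; adjusted p = 7.9e-10) and 7.33-fold for Ang4 (log2 2.87 ± 0.2; adjusted p = 7.3e-09).

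Lyz1 did not follow Ang4: it measured 9500, 6910 and 6820 CPM at day 0 and 6600, 5730 and 784 CPM at day 10 (log2 -0.82 ± 0.54; adjusted p = 0.23), lower without overlap but not past the threshold, and -0.37 ± 0.21 without the third library (adjusted p = 0.17). The fall of Lyz1 was called in 1 of 14 alternative analyses, the edgeR fit with no filter (adjusted p = 0.044). The Lyz1 to Ang4 ratio went from 8.84, 8.86 and 8.88 to 0.998, 0.874 and 1.83. Retnlb measured 12.8, 8.59 and 9.89 CPM at day 0 and 18.3, 19.1 and 5.11 CPM at day 10 (log2 0.45 ± 0.37; adjusted p = 0.33), and passed as a rise of 0.80 ± 0.21 without the third library (adjusted p = 0.006). Lypd8 (1710, 1300 and 1250 against 1110, 1030 and 1320 CPM) and Pigr (2670, 2700 and 2630 against 2860, 2480 and 2790 CPM) overlapped between the days and did not pass, with log2 -0.30 ± 0.21 and 0.02 ± 0.2, or -0.45 ± 0.18 and -0.04 ± 0.17 without the third library.

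**Figure D3:**
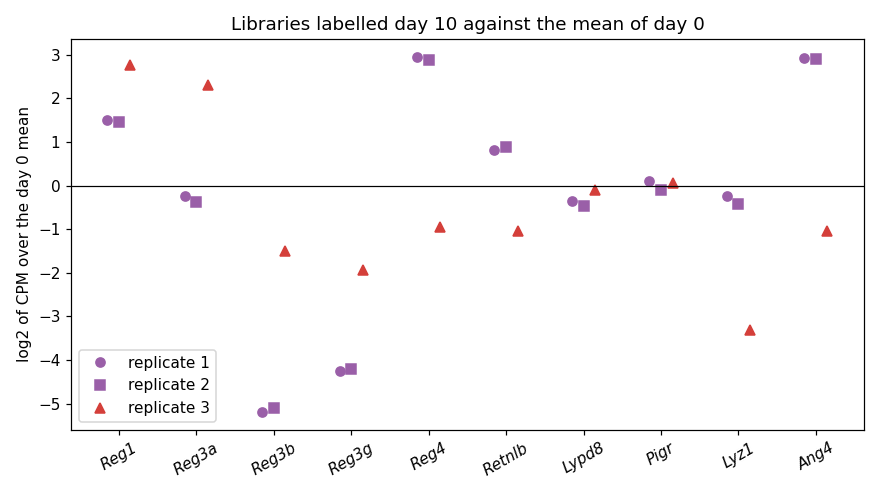
Log2 of each gene's CPM in the 3 libraries labelled day 10 over the mean of the 3 libraries labelled day 0 (symbols, single libraries; y axis log2). The first and second libraries lie together for each gene, while the third lies at -0.94 for Reg4 and -1.03 for Ang4 where they lie at 2.88 to 2.96.

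Marker genes of several cell types moved between these days. The list counts below stand beside 43.6% of all tested genes called, or 40.7% without the third library. Enterocyte genes rose in 8 of 12 cases and hepatocyte genes in 13 of 14, but without the third library 6 enterocyte genes rose and 1 fell, and 1 hepatocyte gene rose. The enterocyte sum was 1190 to 1250 CPM at day 0 and 1360 to 3780 CPM at day 10. It reached 30800 to 32900 CPM in the liver-rich libraries of day 20, so the enterocyte list does not mark enterocytes alone here. Paneth genes were 2 up and 2 down of 14, and 10 up and 2 down without it, with a summed level of 38000 to 51300 CPM at day 0 and 7420 to 112000 CPM at day 10. Their part in the day 10 values of Ang4, Lyz1 and Reg4 was not tested. Of 26 other antimicrobial genes, 9 rose and 3 fell (median 0.54), or 10 and 3 without the third library, among them Ltf, lactoferrin (-2.73 ± 0.37; adjusted p = 0.00065), and Sprr2a3, a small proline-rich protein (2.62 ± 0.42; adjusted p = 0.0016). Without that library Sprr2a3 changed by 1.67 ± 0.2 (adjusted p = 7.8e-06). Of 15 genes of the interleukin 22 and STAT3 list, 2 rose and 2 fell (median -0.21), or 2 and 3 without that library, and those that fell were led by Socs1 (-2.04 ± 0.25; adjusted p = 0.00031) and Stat3 (-0.78 ± 0.15; adjusted p = 0.0035). Of 25 microbial sensing genes, 3 rose and 7 fell (median -0.28), or 3 and 10 without it, with Irf1 at -1.67 ± 0.17 (adjusted p = 5.8e-05) and Cd14 at -1.23 ± 0.16 (adjusted p = 0.00046). Of 11 secretory cell factors, 2 rose and 3 fell (median 0.13), or 4 and 3 without it, with Klf4 at 1.23 ± 0.29 (adjusted p = 0.0079) and Neurog3 at -1.45 ± 0.33 (adjusted p = 0.007). Of 5 IgA genes tested, 1 rose and 2 fell (median -0.13), with Ccl25 at 0.57 ± 0.16 (adjusted p = 0.017) and Tnfsf13b at -1.05 ± 0.25 (adjusted p = 0.0076).

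All 10 members were lower in the libraries labelled day 20 than in those of day 0, where 71.4% of all genes were called, and lower than in those of day 10, where 71.1% were. The median of the 10 was -6.04 and -6.50, beside -0.16 and -0.21 over all genes. Together the 10 genes took 2.2 ± 0.17% of all counts at day 0, 1.67 ± 0.48% at day 10 and 0.118 ± 0.0019% at day 20 (SD, n = 3). Hepatocyte genes rose in 14 of 14 cases, to a sum of 187000 to 189000 CPM, and 12 of 12 goblet genes and 13 of 14 Paneth genes fell, so tissue and day cannot be told apart here.

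Pigr was the exception in size. It measured 1680, 1680 and 1680 CPM at day 20 against 2670, 2700 and 2630 CPM at day 0 (log2 -0.66 ± 0.21; adjusted p = 0.011), and it is also made by rodent hepatocytes, which pass IgA into bile. Per kilobase it stood highest of the 10 at day 20 with 418 ± 0.79 CPM per kb, ahead of Lyz1 at 47.3 ± 7.9 and Ang4 at 37 ± 7.2, whose libraries overlapped. Lyz2, which shares sequence with Lyz1, stood at 65.2 ± 1.9 CPM at day 20. Its part in the Lyz1 counts was not tested. Lyz1 measured 71.2, 54.4 and 53.6 CPM at day 20 (log2 -7.02 ± 0.7 against day 0; adjusted p = 9.8e-07) and Ang4 26, 31.4 and 21.1 CPM (-5.06 ± 0.76; adjusted p = 4.9e-05). Reg3b measured 16.4, 9.59 and 11.5 CPM (-7.65 ± 0.97; adjusted p = 1.1e-05), Reg3g 19.8, 11.3 and 12.1 CPM (-7.59 ± 0.68; adjusted p = 3.3e-07), Lypd8 12.9, 9.4 and 9.87 CPM (-7.05 ± 0.28; adjusted p = 1.7e-10) and Reg4 4.16, 3.44 and 2.88 CPM (-4.86 ± 0.74; adjusted p = 5.5e-05). Reg1 was down to 14, 10 and 10 counts, Reg3a to 2, 3 and 4, and Retnlb to 3, 3 and 4, so no fold is given for Reg3a and Retnlb. From day 10 to day 20 Reg3b changed by -4.77 ± 0.86 (adjusted p = 0.00026) and Reg3g by -4.56 ± 0.59 (adjusted p = 1.4e-05), or by -2.49 and -3.35 without the third day 10 library. Ang4 (-7.43 ± 0.84; adjusted p = 4.1e-06), Reg4 (-7.24 ± 0.81; adjusted p = 3.7e-06) and Reg1 (-7.76 ± 0.43; adjusted p = 3.9e-09), which had risen by day 10, changed most over that interval, and Pigr least (-0.69 ± 0.21; adjusted p = 0.0091).

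**Figure D4:**
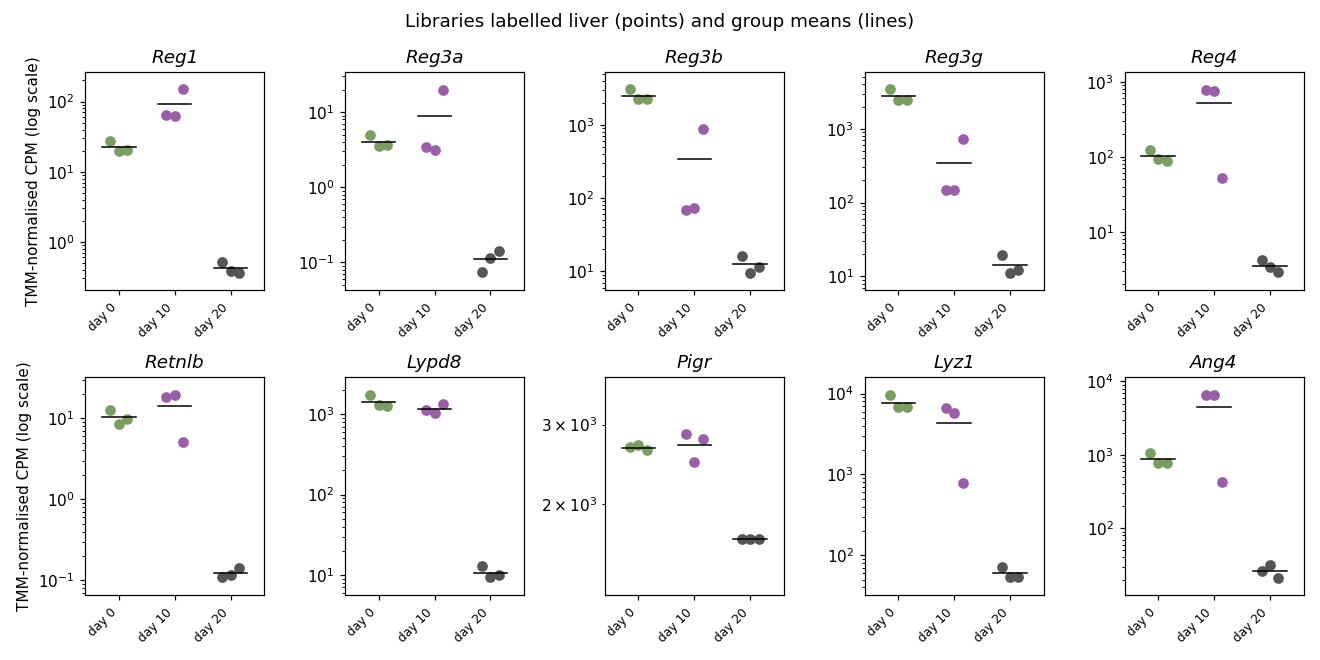
Level of each of the 10 genes in the 9 libraries labelled liver, as TMM-normalised CPM on a log axis with its own range in each panel (points, libraries; lines, means of 3). All but Pigr drop by more than an order of magnitude from day 0 to day 20, and the third day 10 library stands apart for most genes.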

How the data were processed

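RNA from 17 mouse libraries was sequenced after RNeasy extraction and Illumina library preparation, per the labels' protocols. Reads were handled with STAR and Partek against mm10, per the submitters' processing notes, which give no versions or roles. The deposited intestinal files hold expected counts per symbol, of which 36.7% are not whole, and they were rounded before testing. The other deposited files, those of the days, hold whole counts by gene identifier, with no counting program named in the sources read. Symbols were found through RefSeq and GENCODE for 24574 of the 24594 identifiers, and between 3.93 and 22.1% of a library's counts fell on the remaining 20. Intestinal and liver-labelled files were fitted separately, and levels are compared only within each.

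Genes were kept by filterByExpr (minimum count 10, minimum total 15). Counts were scaled by TMM, all groups of a set entered 1 fit, and each of 8 comparisons was tested with edgeR 4.0.16 (quasi-likelihood test, R 4.3.3) with Benjamini-Hochberg adjustment over all tested genes. A call is an adjusted p under 0.05. Fold changes are given with standard errors, levels as TMM-scaled CPM with SD, and levels per kb use the GENCODE exon length. The procedure was tested on simulated data. DESeq2 1.42.0, RLE scaling, no filter, fits of only the groups compared, a replicate block and the removal of each library were tried as alternatives. Counts of list genes without library 3 of day 10 were chosen after seeing the data. The figures were drawn with matplotlib 3.10.9 (Python 3.11.15).

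Libraries of a group differed by more than sampling noise, with a chi-square per degree of freedom of 5.42 to 252. Each was counted once, though this does not show that they came from separate animals. The members and the gene lists were chosen with earlier results of these data known. Named were the 10 members, the list genes with the smallest p (up to 3 per list in the hepatectomy comparisons, 2 between day 0 and day 10), and the genes closest to each member by Pearson r among genes of mean CPM of at least 5; marker lists are given by counts and sums, and the values of Olfm4, Alb, Xist, Ddx3y, Reg2, Lyz2, Cela1 and Fabp6 were read as checks. Il22ra1 was added because the other genes named from its list in the hepatectomy comparisons had all risen. Intervals and errors cover the spread between libraries, not molecules.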

Additional observations from a re-analysis of the deposited data

Results flagged for a closer look

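For 9 of the 10 genes the change after hepatectomy differed between crypts and IEC in edgeR's test of the difference of effects. The change in crypts minus that in IEC, on the log2 scale, was -1.32 for Reg3b, -0.93 for Reg3g, -0.33 for Reg3a and -0.30 for Reg1, which rose in both but less in crypts. It was -1.52 for Ang4 and -0.86 for Lyz1, which fell in both and more in crypts. It was -0.58 for Reg4, which fell in crypts and rose in IEC, -1.37 for Retnlb, which rests on few counts, and 0.28 for Lypd8. Across all genes 19.2% were called in the same comparison.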

How the results depend on the processing

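The count of members called stayed within 1.5 times its reported value under each alternative run: 10 to 10 in crypts, 7 to 9 in IEC, 7 to 10 for the difference of effects, 7 to 8 and 9 to 10 for crypts against IEC in sham and after hepatectomy, 4 to 6 for day 10 against day 0, and 9 to 10 for both day 20 comparisons. DESeq2 gave no adjusted p for Reg3b in the 3 day comparisons. Over all genes DESeq2 called 4718 in crypts against 6822 with edgeR. Of the values for single genes, 15 changed sign, all of them not called. With a library left out, Retnlb in IEC ran from -0.25 to 0.15, and it was 0.09 without the second sham IEC library. Lypd8 between sham crypts and IEC was 0.03 with no filter and 0.00 without the second sham crypt library. Pigr at day 10 against day 0 was -0.19 with no filter, -0.07 with only the groups compared and -0.18 to 0.06 with a library left out. Reg3a at day 10 was -0.34 without the third day 10 library. The cause was not tested. Same-numbered libraries did not deviate together (correlations of -0.02 to 0.03 in the intestinal set and -0.03 to 0.04 in the other). With 2 libraries in a group the deviations mirror each other, so both numbers give the same value. Low correlations cannot exclude that same-numbered libraries came from the same animal. With a replicate block the counts of members called were 10, 9, 9, 7, 10, 5, 10 and 10 in the order of the comparisons above, and Reg3b at day 10 against day 0 was -3.65 (adjusted p = 0.0083). Depth limited Retnlb in the intestinal files and Reg1, Reg3a and Retnlb at day 20.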
